A study of Mus musculus with 8 samples.

Results

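The genes described are the chemokines and chemokine receptors of mouse brown adipose tissue, the fat that burns fuel to make heat. They were taken by symbol from a table of 24535 genes, as every Ccl, Cxcl, Ccr, Cxcr or Ackr symbol followed by a number, together with Cx3cl1, Cx3cr1, Xcl1 and Xcr1. This gave 61 genes, 39 for ligands and 22 for receptors. Of these, 4 were listed at 0 in every library, 27 were above 0 somewhere but had a mean under 0.5 FPKM, and 30 reached that minimum and were tested. FPKM is the number of fragments per kilobase of transcript, scaled to the size of the library, so levels can be set beside each other between genes. The tissue came from 4 wild-type libraries (WT 55, 62, 64 and 65) and 4 libraries of mice with a PGRMC2 adipose tissue knockout (PATKO 53, 57, 70 and 71). All mice were of strain 129Sv/C57BL6j, 18 weeks old, housed at 30 °C and given chow freely. How the knockout was driven, and the sex of the mice, are not stated in the labels. Whether a number stands for a separate animal is not stated, so the p-values below reflect the spread among these samples only, which may be technical.

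Chemokines are small secreted proteins that guide leukocytes along gradients, and their classes (CC, CXC, CX3C and XC) are named for the spacing of the cysteines near the start of the mature protein. They act through G protein-coupled receptors on the migrating cells, while atypical receptors bind chemokines without G protein signalling and remove or transport them. Some ligands are induced by interferon or by NF-kappaB in inflammation, and others are made steadily by stromal cells. In adipose tissue the family is best known for bringing monocytes and T cells into inflamed fat.

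Pgrmc2, the targeted gene, had a PATKO mean of 8.4% of the WT mean, which matched the labels in every library. FPKM summed to 289518 ± 1608 per WT library and 310782 ± 3791 per PATKO library (SD, n = 4). Most genes sat higher in PATKO, with a median log2 change of 0.17 over the 12235 tested genes, and of 0.08 after scaling to a common FPKM total. Median-of-ratios scaling, which divides each library by the median ratio of its genes to their average, brought this median to -0.0. For the chemokine and receptor genes, a log2 change from FPKM as deposited is followed by the one after this scaling, written as scaled. The brown adipocyte markers were present in every library, with Ucp1 from 409.0 to 1305 FPKM and Cidea from 1688 to 2284 FPKM. The sequencing depth of the other libraries was 1.31 to 1.42 times that of WT 55, judged from the smallest steps between low values.

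The highest ligand levels belonged to Ccl11, Cxcl12 and Cxcl9, with means of 16.6, 15.2 and 11.9 FPKM over the 8 libraries, and the highest receptor level to the atypical receptor Ackr3, with 12.1 FPKM. Most other tested ligands lay between 0.5 and 8 FPKM. The tested receptors other than Ackr3 lay between 0.6 and 3.1 FPKM. The summed level of the 39 ligand genes was 144.1, 77.95, 73.11 and 121.4 FPKM in libraries WT 55, 62, 64 and 65, and 80.93, 75.22, 123.8 and 78.62 FPKM in PATKO 53, 57, 70 and 71, so the groups overlapped. The summed level of the 22 receptor genes was 24.39 to 32.28 FPKM in the WT libraries and 19.87 to 22.41 FPKM in PATKO, with no overlap. Ackr3 alone made up 11.951 to 14.993 FPKM of the WT receptor sum and 7.713 to 12.051 FPKM of the PATKO sum. It was 14.993 of the 24.39 FPKM in WT 64 and 7.713 of the 21.22 FPKM in PATKO 70. Without Ackr3, WT 64 thus lay below PATKO 70, and the receptor sums of the groups overlapped.

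**Figure D1:**
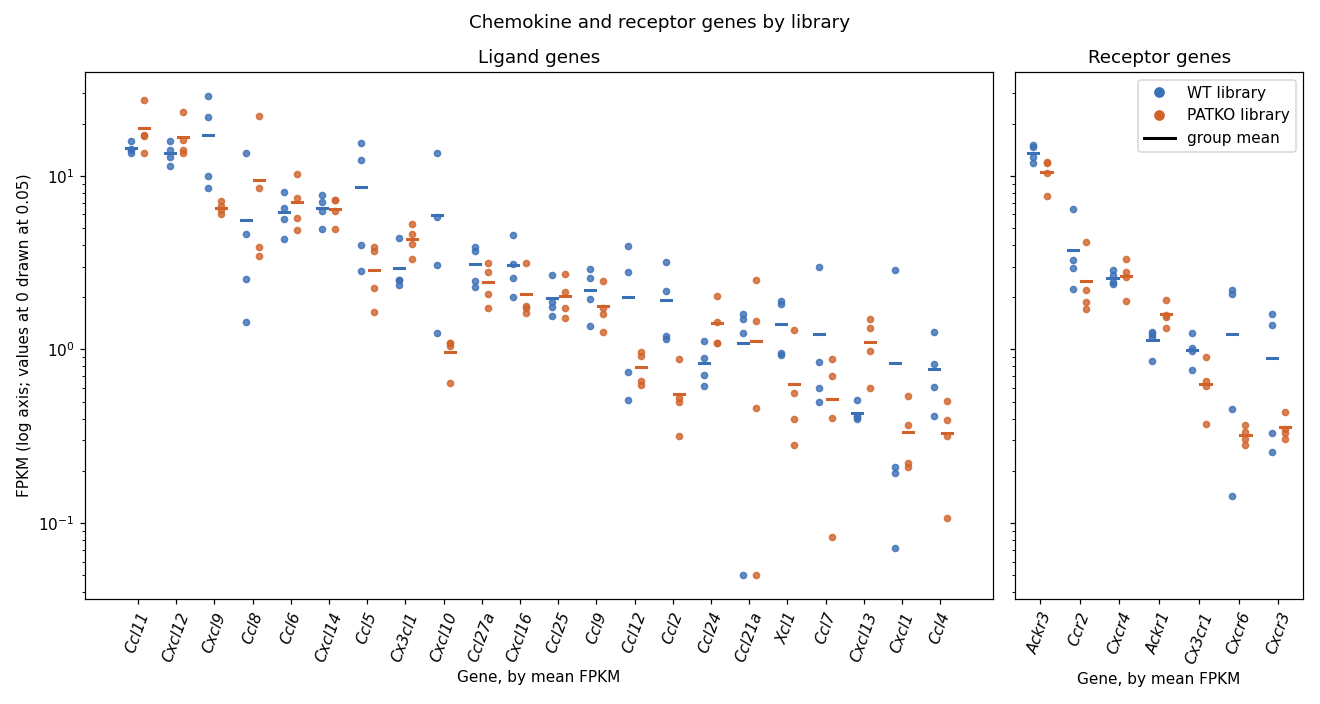
FPKM of 22 tested ligand genes and 7 tested receptor genes in each library, on a log axis, with 4 WT and 4 PATKO points and a bar for each group mean. Cxcl9, Cxcl10 and Ccl2 are lower in every PATKO library than in every WT library, and Cxcl13 and Ackr1 are higher in every PATKO library with FPKM as deposited.

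With FPKM as deposited, limma called 3 of the 30 tested genes. The ligand genes Cxcl9 and Ccl2 fell, where 0.27% of all tested genes were called lower, and the ligand gene Cxcl13 rose, where 13.2% of all tested genes were called higher. At an unadjusted limma p under 0.05 there were 4 higher and 8 lower, where the shares of all tested genes were 34.6% and 1.39%. None of the 30 passed in limma with median-of-ratios values, where 1 was higher and 10 lower by the unadjusted p. The shares of all genes were then 0.0817% called higher and 0.0409% called lower, and 9.1% and 8.21% by the unadjusted p. The median log2 change of the 30 genes was -0.33 as deposited and -0.49 after scaling, and 20 and 23 of them, respectively, lay below 0. Over all tested genes 16.0% lay below 0 as deposited and 51.1% after scaling. Changes of at least 0.5 in size were higher for 4 and lower for 10 of the 30 as deposited (6.22% and 1.41% of all genes), and for 2 and 15 after scaling (3.4% and 2.63%). The authors' deposited table gives 6 of the 30 an adjusted p under 0.05, all lower in PATKO (Cxcl10, Ccl2, Cxcl9, Ccl5, Ackr3 and Cx3cr1), where it does so for 1.81% of the same 12235 genes lower and for 2.43% higher. The minimum of 0.5 FPKM was passed by Cxcr3, Cxcr6, Cxcl1 and Ccl4 through their WT mean, since their PATKO mean was under it, and by Cxcl13 through its PATKO mean. These counts therefore describe the list and support no test of it. The values nearest the minimum were those of Ccl4 (0.552 FPKM), Cxcl1 (0.585 FPKM) and Cxcr3 (0.623 FPKM) inside it, and of Ccl3 (0.455 FPKM), Ccl22 (0.377 FPKM) and Ccl28 (0.337 FPKM) outside it.

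**Figure D2:**
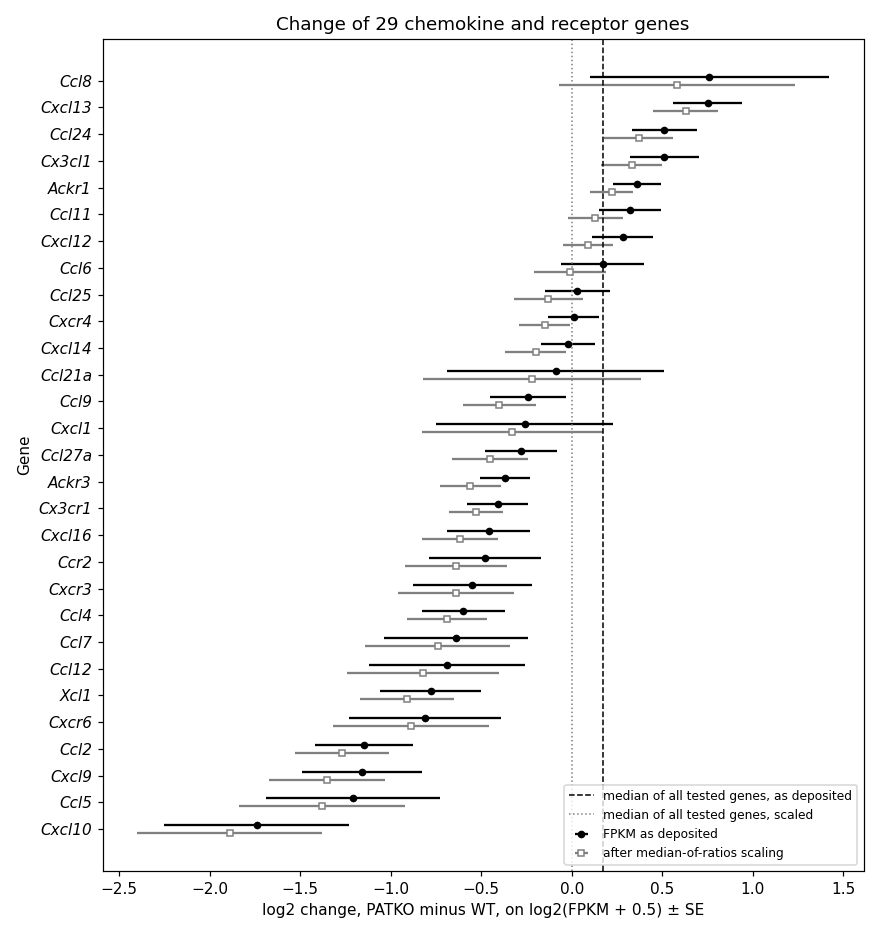
Log2 change of 29 tested genes, PATKO minus WT on the log2(FPKM + 0.5) scale, with the limma standard error, as deposited (black dots) and after median-of-ratios scaling (gray squares). Dashed and dotted lines mark the median of all tested genes, and 19 of the 29 genes lie below 0 as deposited and 22 after scaling.

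Cxcl9 and Cxcl10 are interferon-inducible ligands of the receptor Cxcr3, which activated T cells and NK cells carry. They are neighbours on chromosome 5 (GRCm38, minus strand), Cxcl9 at 92321347 to 92328079 and Cxcl10 at 92346638 to 92348889. Cxcl9 was 28.941, 8.568, 9.945 and 21.796 FPKM in libraries WT 55, 62, 64 and 65, and 7.164, 6.706, 6.068 and 6.372 FPKM in PATKO 53, 57, 70 and 71. The PATKO libraries were close to each other and all below the lowest WT library, while WT 55 and WT 65 stood well above WT 62 and WT 64. The PATKO mean was 38.0% of the WT mean (a log2 change of -1.16, SE 0.33, limma adjusted p = 0.0471; -1.35 and adjusted p = 0.13 after median-of-ratios scaling; exact permutation p = 0.0286, two-sided, which is the minimum for 70 assignments). Cxcl10 stood at 13.603, 3.08, 1.246 and 5.782 FPKM in libraries WT 55, 62, 64 and 65, and 0.641, 1.083, 1.053 and 1.089 FPKM in PATKO 53, 57, 70 and 71. Its WT values spread widely, and WT 64 lay just above the PATKO libraries. Its PATKO mean was 16.3% of the WT mean, the lowest share of the 30 genes, yet it just missed the threshold (a log2 change of -1.74, SE 0.51, limma adjusted p = 0.0512; -1.89 and adjusted p = 0.143 after scaling). The authors' deposited table gives adjusted p-values of 0.00981 for Cxcl9 and 0.00119 for Cxcl10. The cluster's other ligand of the same receptor, Cxcl11, was below the minimum, at 0.231, 0, 0.043 and 0.17 FPKM in the WT libraries and at 0.041 FPKM in PATKO 70 and 0 in the other PATKO libraries.

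The stretches of 250 bases before the annotated starts of Cxcl9, Cxcl10 and Cxcl13 are shown because these genes, with Ccl2, were the ones whose groups did not overlap under either scaling. They come from RefSeq on GRCm38.p6, at chr5:92328080-92328329 on the minus strand, chr5:92348890-92349139 on the minus strand and chr5:95956689-95956938 on the plus strand, and 22 of the 30 genes had an entry. Capitals mark matches, on either strand, to a pair of interferon-stimulated response half-sites (GAAA repeated after a gap of 2 bases), to the interferon-gamma-activated motif (TTCNNNGAA) or to the kappaB consensus.
Cxcl9: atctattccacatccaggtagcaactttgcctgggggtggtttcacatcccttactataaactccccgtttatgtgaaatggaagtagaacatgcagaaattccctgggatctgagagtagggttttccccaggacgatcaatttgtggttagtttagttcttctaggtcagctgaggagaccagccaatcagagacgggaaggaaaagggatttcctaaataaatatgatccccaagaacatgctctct
Cxcl10: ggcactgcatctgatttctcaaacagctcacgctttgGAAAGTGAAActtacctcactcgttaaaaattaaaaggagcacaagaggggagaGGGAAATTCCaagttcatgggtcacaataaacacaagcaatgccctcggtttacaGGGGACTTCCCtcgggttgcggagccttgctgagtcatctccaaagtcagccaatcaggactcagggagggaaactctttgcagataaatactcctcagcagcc
Cxcl13: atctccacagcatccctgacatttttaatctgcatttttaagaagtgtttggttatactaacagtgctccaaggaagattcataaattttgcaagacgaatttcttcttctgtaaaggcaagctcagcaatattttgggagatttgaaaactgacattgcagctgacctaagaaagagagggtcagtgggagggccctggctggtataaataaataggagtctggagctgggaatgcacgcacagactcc
In this window only Cxcl10 had matches among these 3 genes. It held the interferon motif at -213 to -204 and kappaB matches at -159 to -150, -104 to -95 and -103 to -94, counted from the start, of which the last pair overlap. Over 32851 promoter windows of the same length, 2.98% held the interferon half-site pair, 7.02% the gamma-activated motif and 7.25% the kappaB consensus. Among the 22 genes, the half-site pair was in Cxcl10 and Cxcl14, the gamma-activated motif in Cxcl14, and the kappaB consensus in Cxcl10, Cxcl1 and Ccl9. A match describes letters in the window and no binding was measured. Only full matches to these 3 patterns were searched, so a window without one, as for Cxcl9, may still hold a variant of these sites.

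Ccl2, Ccl7, Ccl12 and Ccl8 encode ligands of the monocyte receptor Ccr2 and lie together on chromosome 11 between 82035571 and 82116799, with the eotaxin gene Ccl11 among them. Ccl2 was 3.191, 1.155, 1.191 and 2.184 FPKM in libraries WT 55, 62, 64 and 65, and 0.876, 0.522, 0.319 and 0.496 FPKM in PATKO 53, 57, 70 and 71. All PATKO libraries lay below all WT libraries, and WT 55 and WT 65 were again the higher WT pair. It fell to 28.7% of the WT mean (a log2 change of -1.15, SE 0.27, limma adjusted p = 0.0331), and did not pass after median-of-ratios scaling (-1.27, adjusted p = 0.114). Ccl7 was 2.99, 0.499, 0.601 and 0.848 FPKM in the WT libraries and 0.083 to 0.878 FPKM in PATKO, with an overlap (log2 change -0.64, SE 0.40, and -0.74 scaled). Ccl12 was 3.954, 0.746, 0.513 and 2.788 FPKM in libraries WT 55, 62, 64 and 65 and 0.623 to 0.964 FPKM in PATKO, so WT 55 and WT 65 lay far above the PATKO range, WT 62 inside it and WT 64 below it (log2 change -0.69, SE 0.43, and -0.82 scaled). Ccl8 took the other direction, at 13.532, 1.436, 2.559 and 4.655 FPKM in the WT libraries and 3.883, 3.443, 22.124 and 8.505 FPKM in PATKO 53, 57, 70 and 71. Its highest values were in PATKO 70 and WT 55, the groups overlapped, and its log2 change of 0.76 had an SE of 0.66 (0.58 scaled). Neighbours in the cluster thus had log2 changes of opposite sign, from -1.15 for Ccl2 to 0.76 for Ccl8 as deposited, and the difference between genes was not tested.

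The second chromosome 11 cluster holds the genes of the inflammatory CC ligands Ccl5, Ccl9, Ccl6 and Ccl4, between 83525778 and 83664683. Ccl5, which T cells, NK cells and platelets carry, was 12.323, 4.019, 2.851 and 15.48 FPKM in libraries WT 55, 62, 64 and 65, and 2.268, 3.709, 3.892 and 1.636 FPKM in PATKO 53, 57, 70 and 71. WT 55 and WT 65 were at least 3 times every other library, WT 62 lay just above the PATKO range and WT 64 inside it. Its log2 change of -1.21 had an SE of 0.48 and did not pass (limma adjusted p = 0.106, and -1.38 with 0.192 scaled), while the authors' deposited table gives it 0.0184. Ccl4 was 1.254, 0.605, 0.416 and 0.822 FPKM in the WT libraries and 0.107, 0.319, 0.391 and 0.505 FPKM in the PATKO libraries, where 3 of 4 PATKO libraries lay below the lowest WT library (log2 change -0.60, limma adjusted p = 0.0999, and -0.69 with 0.182 scaled). Its partner Ccl3, below the minimum, was 0.168 to 1.114 FPKM in the WT libraries and 0.089 to 0.355 FPKM in PATKO. The mouse ligand genes Ccl6 and Ccl9, which myeloid cells express, were 6.16 ± 1.56 and 2.20 ± 0.684 FPKM in the WT libraries and 7.10 ± 2.39 and 1.77 ± 0.521 FPKM in PATKO (SD, n = 4), within the spread of the libraries.

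Xcl1, which T and NK cells secrete to attract cross-presenting dendritic cells, was 1.837, 0.93, 0.96 and 1.896 FPKM in libraries WT 55, 62, 64 and 65. In PATKO 53, 57, 70 and 71 it was 0.565, 0.28, 1.287 and 0.4 FPKM. PATKO 70 alone reached the WT range, and the log2 change of -0.78 (SE 0.28) did not pass (limma adjusted p = 0.0828, and -0.91 with 0.152 scaled). Its receptor gene Xcr1 was below the minimum, at 0.046 to 0.212 FPKM in the WT libraries and 0.032 to 0.06 FPKM in PATKO. Cxcl16, a membrane-bound ligand of Cxcr6, was 3.104, 2.598, 2.01 and 4.549 FPKM in the WT libraries and 1.782, 1.627, 3.171 and 1.736 FPKM in PATKO 53, 57, 70 and 71, so 3 of 4 PATKO libraries lay below the WT range. Its log2 change of -0.46 had a limma adjusted p of 0.183 (-0.62 and 0.191 scaled). Cxcl1, a neutrophil attractant, rested on 1 library: it was 2.854 FPKM in WT 65 and 0.072 to 0.543 FPKM in the other 7, and its log2 change went from -0.26 (-0.33 scaled) to 0.33 without WT 65 (0.27 scaled).

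**Figure D3:**
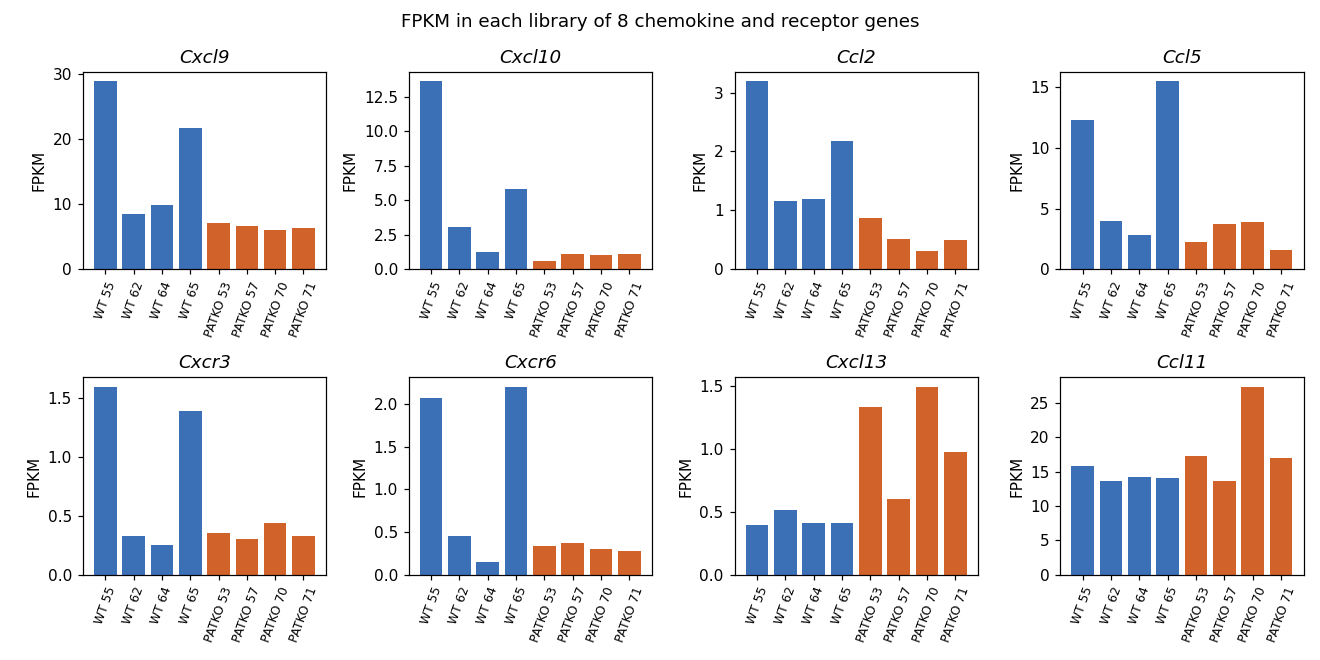
FPKM in each of the 8 libraries for Cxcl9, Cxcl10, Ccl2, Ccl5, Cxcr3, Cxcr6, Cxcl13 and Ccl11, WT in blue and PATKO in orange, each panel with its own axis from 0. WT 55 and WT 65 are the higher WT pair in the first 6 panels, whereas Cxcl13 is higher in every PATKO library (0.603 to 1.494 FPKM) than in every WT library (0.395 to 0.514 FPKM).

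Cxcl13, which attracts B cells through Cxcr5, lies on chromosome 5 at 95956951 to 95961068 on the plus strand. It was 0.395, 0.514, 0.413 and 0.407 FPKM in libraries WT 55, 62, 64 and 65, and 1.335, 0.603, 1.494 and 0.974 FPKM in PATKO 53, 57, 70 and 71. The WT libraries were close together, and every PATKO library lay above them, PATKO 57 by the least. It rose to 2.55 times the WT mean (a log2 change of 0.75, SE 0.19, limma adjusted p = 0.0374), and did not pass after median-of-ratios scaling (0.63, adjusted p = 0.151) or in the authors' deposited table (0.219). Its receptor gene Cxcr5 was below the minimum, at 0 to 0.258 FPKM in the WT libraries and 0.054 to 0.245 FPKM in PATKO. Of 9 B cell markers, Cd79b alone reached the minimum (1.04 ± 0.245 FPKM in the WT libraries and 0.865 ± 0.266 in PATKO), and Ms4a1 and Cd79a were each under 0.4 FPKM in every library.

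The eotaxin genes Ccl11 and Ccl24, whose products attract eosinophils through Ccr3, had higher PATKO means. Ccl11 was 15.814, 13.609, 14.231 and 14.114 FPKM in libraries WT 55, 62, 64 and 65, and 17.213, 13.57, 27.373 and 16.987 FPKM in PATKO 53, 57, 70 and 71. PATKO 70 stood highest and PATKO 57 lay just under the WT range (log2 change 0.32, SE 0.17, limma adjusted p = 0.206, and 0.13 with 0.715 scaled). Ccl24 was 0.711, 0.617, 1.115 and 0.891 FPKM in the WT libraries and 2.022, 1.085, 1.096 and 1.444 FPKM in PATKO 53, 57, 70 and 71, with a log2 change of 0.51 (SE 0.18, limma adjusted p = 0.0844, and 0.37 with 0.35 scaled). Ccr3 itself was listed at 0 in 6 of the 8 libraries, and Ccl26 at 0 in all. Cx3cl1, the membrane-tethered chemokine of endothelial cells and neurons, was 4.364, 2.505, 2.367 and 2.509 FPKM in libraries WT 55, 62, 64 and 65, and 4.047, 4.641, 5.26 and 3.313 FPKM in PATKO 53, 57, 70 and 71. WT 55 alone reached the PATKO range. With all libraries the log2 change was 0.51 (SE 0.19, limma adjusted p = 0.0884, and 0.33 with 0.348 scaled). Without WT 55 it was 0.69 and passed as deposited (limma adjusted p = 0.0285), but not scaled (0.50, adjusted p = 0.1).

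Cxcl12, Cxcl14, Ccl25, Ccl27a and Ccl21a are other ligands that stromal or epithelial cells make in the absence of inflammation, and none of these passed. Cxcl12, which retains Cxcr4-bearing cells in tissue, was 11.354 to 15.89 FPKM in the WT libraries and 13.645 to 23.43 FPKM in PATKO (log2 change 0.28, SE 0.17, limma adjusted p = 0.245, and 0.09 with 0.811 scaled). PATKO 70 was again the highest library. Cxcl14 was 6.52 FPKM in the WT libraries and 6.44 FPKM in PATKO, and Ccl25, a ligand of Ccr9, was 1.98 and 2.02 FPKM. Ccl27a, a ligand of Ccr10 known from skin, was 3.09 FPKM in the WT libraries and 2.45 FPKM in PATKO (log2 change -0.28, SE 0.20, and -0.45 scaled). Ccl21a, a ligand of Ccr7, was listed at 0 in WT 55 and PATKO 57 and at 0.461 to 2.523 FPKM in the other 6 libraries, and its near-identical copies Ccl21b and Ccl21c were at 0 throughout. How the authors' counting treated reads shared by such copies is not stated, so Ccl21a, and Ccl27a beside Ccl27b (0 throughout), are uncertain.

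Of the 8 tested receptor genes none passed, and 6 had a log2 change below 0 as deposited and 7 after median-of-ratios scaling. Cxcr3, the receptor for Cxcl9 and Cxcl10, was 1.593, 0.329, 0.255 and 1.384 FPKM in libraries WT 55, 62, 64 and 65, and 0.304 to 0.438 FPKM in PATKO. Cxcr6, found on T and NK cells, was 2.078, 0.455, 0.144 and 2.209 FPKM in the same WT libraries and 0.28 to 0.369 FPKM in PATKO. For both genes WT 55 and WT 65 were at least 3 times every other library, while WT 62 lay inside (Cxcr3) or above (Cxcr6) the PATKO range and WT 64 below it. Their log2 changes were -0.55 (SE 0.33) and -0.81 (SE 0.42), with limma adjusted p-values of 0.24 and 0.193 (-0.64 and -0.89 scaled, adjusted p = 0.35 and 0.324). The monocyte receptor Ccr2 was 3.286, 2.931, 2.225 and 6.478 FPKM in the WT libraries and 2.212, 1.711, 4.159 and 1.866 FPKM in PATKO 53, 57, 70 and 71. Its log2 change was -0.48 (SE 0.31) and did not pass (limma adjusted p = 0.276, and -0.64 with 0.285 scaled). Cxcr6 and Ccr2 lie on chromosome 9 between 123806475 and 124113557.

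Cx3cr1, the receptor of Cx3cl1 on monocytes and macrophages, was 0.974, 1.022, 0.764 and 1.239 FPKM in libraries WT 55, 62, 64 and 65, and 0.655, 0.613, 0.904 and 0.371 FPKM in PATKO 53, 57, 70 and 71. PATKO 70 alone reached the WT range, and the log2 change of -0.41 (SE 0.17) did not pass (limma adjusted p = 0.117), where the authors' deposited table gives 0.0425. After median-of-ratios scaling the groups no longer overlapped (log2 change -0.53, limma adjusted p = 0.156). Its ligand had a log2 change of opposite sign, as described above, and the difference was not tested. Cxcr4 was 2.59 FPKM in the WT libraries and 2.65 FPKM in PATKO, a log2 change of 0.01 (SE 0.14) that was -0.15 after scaling.

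The atypical receptors Ackr3 and Ackr1 had log2 changes of opposite sign. Ackr3, which scavenges Cxcl12, was 11.951, 14.695, 14.993 and 12.849 FPKM in libraries WT 55, 62, 64 and 65, and 12.051, 10.39, 7.713 and 11.828 FPKM in PATKO 53, 57, 70 and 71. PATKO 70 was lowest, and 3 of 4 PATKO libraries lay below the WT range. The log2 change was -0.37 (SE 0.14, limma adjusted p = 0.0876) and -0.56 after scaling (SE 0.17, limma adjusted p = 0.16), when the groups no longer overlapped. The authors' deposited table lists 0.0339 for it. Ackr1, which carries chemokines across venular endothelium, was 1.266, 0.859, 1.181 and 1.225 FPKM in the WT libraries and 1.338, 1.57, 1.94 and 1.549 FPKM in the PATKO libraries, with no overlap as deposited (log2 change 0.36, SE 0.13, limma adjusted p = 0.0873). After scaling the groups overlapped (0.22, SE 0.12, limma adjusted p = 0.374). Non-overlap occurred for 5 of the 30 genes as deposited, 3 lower and 2 higher, where 0.597% of all tested genes were lower and 24.0% higher without overlap. After scaling it occurred for 6, 5 lower (Ccl2, Cxcl9, Cxcl10, Ackr3 and Cx3cr1) and 1 higher (Cxcl13), where the shares were 4.36% and 5.57%.

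WT 55 and WT 65 were the highest pair of the 4 WT libraries for 16 of the 30 genes, and for 31% of all tested genes. The same pair was highest for Ptprc and for the summed T and NK cell, dendritic cell and skeletal muscle markers. It was also highest for the summed genes of inducing cytokines, their receptors and factors, and of proteins that trim or present chemokines. For the summed macrophage and monocyte, B cell or neutrophil markers it was not. Ptprc, the pan-leukocyte gene, was 4.293, 2.093, 1.536 and 4.616 FPKM in libraries WT 55, 62, 64 and 65, and 1.544 to 2.511 FPKM in PATKO. The summed level of the 16 T and NK cell markers in the table was 34.1, 10.7, 9.82 and 23.0 FPKM in libraries WT 55, 62, 64 and 65, and 7.04 to 9.95 FPKM in PATKO, so that PATKO 70 just reached the level of WT 64. Of these, 11 were tested and 0 passed in limma, and none was at 0 in all libraries. By an unadjusted limma p under 0.05, 0 were higher and 4 lower as deposited, and 0 and 8 after scaling. The shares of all tested genes were 34.6% higher and 1.39% lower as deposited, and 9.1% and 8.21% after scaling. The minimum of 0.5 FPKM was passed by Cd3d, Cd3e, Cd4, Gzmb and Klrd1 through their WT mean, since their PATKO mean was under it. Cd3d, Cd4 and Klrd1 are among the 4 lower as deposited. These marker counts therefore describe the list and support no test of it. Lck, a T cell kinase, was 1.71 ± 1.0 FPKM in the WT libraries and 0.525 ± 0.206 in PATKO (SD, n = 4; limma adjusted p = 0.0585). The part of these cells in the chemokine values was not tested, and in bulk tissue fewer cells of a type and less RNA per cell cannot be told apart.

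No marker list had a lower sum in every PATKO library than in every WT library, while the mast, lymphatic and skeletal muscle sums were higher in every PATKO library. Calls below are as deposited, where 13.2% of all tested genes were called higher, unless scaled values are named. The 17 macrophage and monocyte markers in the table summed to 128.0 to 252.0 FPKM in the WT libraries and 134.0 to 269.0 FPKM in PATKO, and none of the 16 tested passed. Dendritic cell markers summed to 46.3 to 88.4 FPKM in the WT libraries and 52.5 to 90.1 FPKM in PATKO. The neutrophil markers Ly6g, Camp and Mpo were at 0 in all libraries, and the 8 neutrophil markers summed to 3.33 to 10.2 FPKM in the WT libraries and 5.1 to 11.9 FPKM in PATKO. Endothelial markers summed to 128.0 to 183.0 FPKM in the WT libraries and 150.0 to 181.0 FPKM in PATKO, with Emcn the 1 of 8 that passed (limma adjusted p = 0.0399, and 0.363 scaled), and mural cell markers to 132.0 to 156.0 and 138.0 to 186.0 FPKM. Lymphatic markers summed to 2.46 to 2.84 FPKM in the WT libraries and 3.11 to 4.53 FPKM in PATKO. Without Lyve1, which the macrophage list also holds, they overlapped, at 1.97 to 2.40 FPKM and 2.32 to 2.99 FPKM. Fibroblast markers, from cells known to make Ccl11 and Cxcl12, summed to 239.0 to 295.0 FPKM in the WT libraries and to 425.0, 276.0, 487.0 and 321.0 FPKM in PATKO 53, 57, 70 and 71, and 1 of 9, Dcn, passed (limma adjusted p = 0.0431, and 0.238 scaled). PATKO 70 was the highest library for this sum, as for Ccl11 and Cxcl12, and also for the macrophage, dendritic, mural and mast cell sums. The factor by which median-of-ratios scaling divided PATKO 70, 1.153, was the largest of the 8 libraries. Any link between these values was not tested. The mast cell markers rose for 4 of 6 tested, and the skeletal muscle markers for 12 of 12, with sums of 500.0 to 1240 FPKM in the WT libraries and 1410 to 5490 FPKM in PATKO. After scaling 1 mast cell marker (Cma1) and 0 skeletal muscle markers passed in limma, where 0.0817% of all tested genes were called higher. By an unadjusted limma p under 0.05, 4 and 12 were higher and 0 lower. The shares of all tested genes were then 9.1% higher and 8.21% lower. The part of these cell types in the results was not tested.

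**Figure D4:**
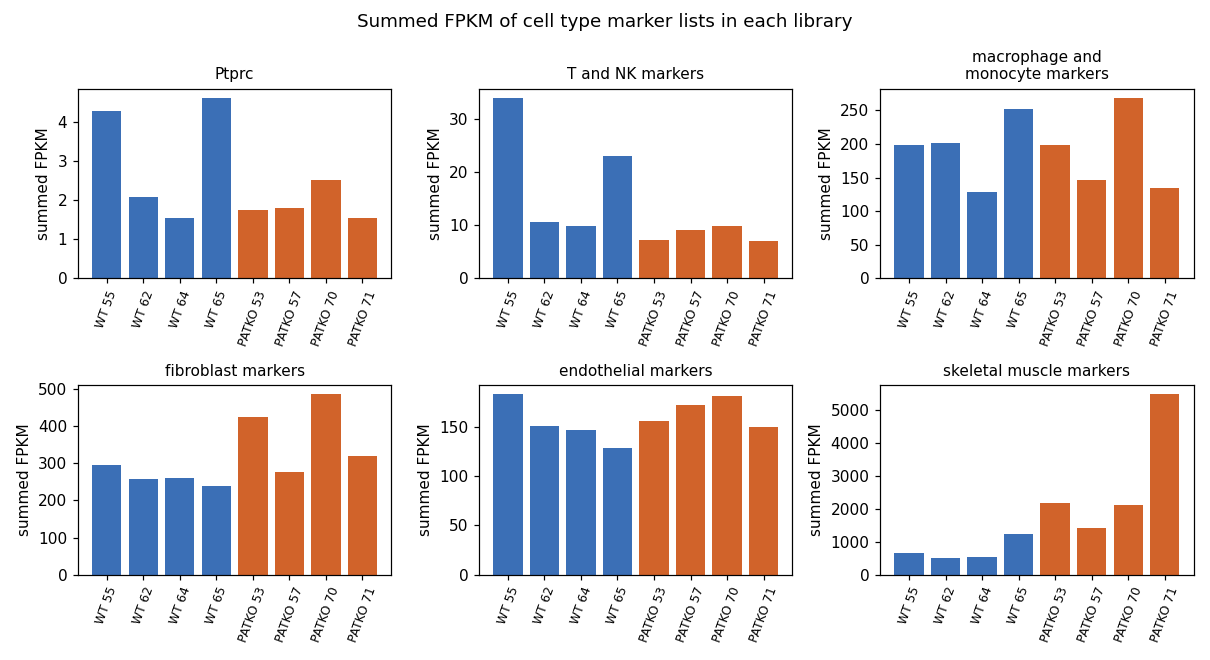
Summed FPKM of Ptprc and 5 marker lists in each of the 8 libraries, WT in blue and PATKO in orange, with axes from 0. Ptprc and the T and NK markers are highest in WT 55 and WT 65, fibroblast markers in PATKO 70 and PATKO 53, and skeletal muscle markers in PATKO 71.

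Genes around the chemokines were counted by role, as deposited and by limma, beside the 13.2% of all tested genes called higher and 0.27% called lower. Of 7 family genes with other symbols in the table, 6 were tested and 0 passed. By the unadjusted limma p 1 was higher and 0 lower, where the shares of all tested genes were 34.6% and 1.39%. These family genes include the platelet chemokine Pf4 (7.67 ± 1.15 FPKM in the WT libraries and 9.13 ± 0.598 in PATKO) and Mif (10.7 ± 0.993 and 11.7 ± 0.548 FPKM). Of 31 tested genes for G proteins, arrestins, receptor kinases and migration effectors, 1 rose, Gnai1, and 0 fell. Gnai1, an inhibitory G protein subunit, went from 11.6 ± 1.0 to 14.6 ± 1.38 FPKM (limma adjusted p = 0.0458). Rac2, a leukocyte GTPase of migration, was 3.20 ± 1.93 FPKM in the WT libraries and 1.63 ± 0.652 in PATKO (limma adjusted p = 0.203). Of 27 tested genes for inducing cytokines, their receptors and factors, 3 rose, the receptor genes Ifngr2 (7.39 ± 0.909 to 9.97 ± 0.703 FPKM), Ifnar1 (7.71 ± 0.237 to 10.3 ± 1.30 FPKM) and Ltbr (15.4 ± 1.75 to 19.8 ± 1.90 FPKM), and 0 fell. The interferon-activated factor Irf1 was 19.5 ± 7.07 FPKM in the WT libraries and 14.3 ± 2.06 FPKM in PATKO, and did not pass (limma adjusted p = 0.218). Of 16 tested genes for proteins that trim or present chemokines, 4 rose, the protease gene Mmp9 (0.444 ± 0.155 to 1.05 ± 0.202 FPKM), the proteoglycan genes Sdc2 and Sdc4, and the heparan sulfate polymerase gene Ext2, and 0 fell. Mmp9 reached the minimum of 0.5 FPKM through its PATKO mean, since its WT mean was under it. Among the migration effectors, Itgal and Itga4 reached it through their WT mean, so these counts support no test of the lists. In limma on median-of-ratios values 0 genes passed in each of these 4 lists. By an unadjusted p under 0.05 there were 0 higher and 0 lower among the other-symbol genes and 0 and 6 in signalling. There were 2 and 4 among inducers and 4 and 0 in trimming and presentation. The shares of all tested genes were 9.1% higher and 8.21% lower.

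The 3 calls were close to the threshold and rested on the full set of libraries. Without WT 55, Ccl2 still passed (limma adjusted p = 0.0401), and its adjusted p was 0.0564, 0.0626 and 0.0627 without WT 62, 64 and 65 and 0.0581, 0.0532, 0.0814 and 0.0567 without PATKO 53, 57, 70 and 71. Cxcl9 did not pass when any library was left out (limma adjusted p = 0.0589, 0.0547, 0.0708 and 0.0952 without WT 55, 62, 64 and 65, and 0.0844, 0.079, 0.111 and 0.0787 without PATKO 53, 57, 70 and 71). Cxcl13 still passed without PATKO 57 (limma adjusted p = 0.0265), with an adjusted p of 0.0541, 0.0724, 0.0824 and 0.0673 without WT 55, 62, 64 and 65 and 0.0842, 0.0884 and 0.0589 without PATKO 53, 70 and 71. The log2 change kept its sign in each of these fits, from -1.31 to -0.92 for Ccl2, -1.43 to -0.86 for Cxcl9 and 0.63 to 0.91 for Cxcl13. With both WT 55 and WT 65 left out, an alternative chosen after the data were seen, Cxcl9 had a log2 change of -0.46 and passed as deposited (limma adjusted p = 0.0486), but not after scaling (-0.69, adjusted p = 0.0948). Ccl2 (-0.69, adjusted p = 0.0811), Cxcl10 (-0.78, adjusted p = 0.106) and Cxcl13 (0.70, adjusted p = 0.101) did not, and Ccl5 went to -0.27.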

How the data were processed

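Poly(A) RNA of brown adipose tissue was sequenced in 8 libraries, each from 0.5 µg of RNA and with a kit that keeps strand, per the labels' protocols. Per the submitters' processing notes, the build was mm10. No source used here names the aligner, counter or annotation. The authors deposited FPKM per gene and library, group means and an adjusted p-value whose test is not named, per the file headers. Their linear fold was not used.

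FPKM values are not counts, so limma 3.58.1 in R 4.3.3 (trend, two-sided) tested log2(FPKM + 0.5) for 12235 genes whose mean reached 0.5 FPKM, PATKO against WT. P-values were Benjamini-Hochberg adjusted over all these genes, with a threshold of 0.05, and this scale understates changes of low genes. Single genes also had an exact permutation test over 70 assignments. The step was tested on simulated data. All tested members but 1, which is not reported here and is kept in the counts, were named, and in full those past the threshold, at an unadjusted p under 0.05 or without overlap. From the other lists the genes with the smallest adjusted p were eligible (up to 4 each). Rac2, Irf1, Ucp1, Cidea, Ms4a1, Cd79a, Cd3e, Gzmb, Itgal and Itga4 were chosen after their values were seen. So were members under the minimum other than Ccl3, Ccl22 and Ccl28. Members and lists were chosen with earlier results of these data known. Positions are from GENCODE M21 (GRCm38, the assembly mm10 names). Without read totals, depth is known only relative to WT 55 (1.31 to 1.42), and no counting intervals are given. Alternatives were other pseudocounts, filters, scalings and variance models, and leaving out libraries. Tables and plots used Python 3.11.15, matplotlib 3.10.9, numpy 2.4.6 and pandas 2.3.3.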

Additional observations from a re-analysis of the deposited data

Results flagged for a closer look

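Of 60 groups of 4 libraries checked (30 genes in 2 groups), 6 held a library far from the other 3 of its group. The 6 were Cxcl10 at 0.641 FPKM in PATKO 53, the lowest of its group, and Cxcl16 at 3.171 FPKM in PATKO 70, Cxcl13 at 0.514 FPKM in WT 62, Ccl7 at 2.99 FPKM in WT 55, Cx3cl1 at 4.364 FPKM in WT 55 and Cxcl1 at 2.854 FPKM in WT 65, each the highest of its group. The gap to the nearest library was 0.92, 0.9, 0.849, 0.86, 0.929 and 0.95 of the range of the group, in the same order. The values of Cxcl13 in WT spanned only 0.395 to 0.514 FPKM.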

How the results depend on the processing

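No paired analysis was possible because the groups share no replicate numbers. Over up to 27 alternatives, 18 of the 30 genes kept their direction in every one, 13 lower (among them Ccl2, Cxcl9, Cxcl10 and Ccl5) and 5 higher (Cxcl13, Cx3cl1, Ccl24, Ackr1 and Ccl8). For the 30 genes, the lower calls went from 2 to 0 with median-of-ratios scaling, a common FPKM total, quantile normalization and no filter on low values, and to 1 with robust eBayes and without a trend. The higher call went from 1 to 0 under the same 3 scalings, without a filter and with a minimum mean of 1 FPKM, which Cxcl13 does not reach. Leaving out WT 55 and WT 65 gave 0 higher and 1 lower, and 0 and 0 with median-of-ratios scaling. Cxcl10 passed with a pseudocount of 0.1 and with the minimum of 1 FPKM. Leaving out each library gave 0 to 1 higher and 0 to 1 lower call, and 0 of each with median-of-ratios scaling. The median log2 change of the 30 genes was -0.45 to -0.20 in those fits, -0.57 to -0.38 with scaling, and -0.03 without WT 55 and WT 65 (-0.22 scaled).

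Over all genes, 1613 higher and 33 lower calls became 10 and 5 with median-of-ratios scaling, 22 and 6 with a common total, 12 and 6 with quantile normalization, 700 and 13 without a filter, 973 and 19 without a trend, and 701 and 41 without WT 55 and WT 65 (7 and 8 scaled). Leaving out each library gave 21 to 1398 higher and 2 to 65 lower calls, and 1 to 33 and 2 to 24 with scaling. Fewer libraries were then tested; otherwise the cause was not tested.

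No gene that reversed had passed. Under median-of-ratios scaling, a common total and quantile normalization, Cxcr4 was at -0.15, -0.07 and -0.17, and Ccl25 at -0.13, -0.06 and -0.15. Ccl6 was at -0.01 and -0.02 under the first and last of these. Without WT 55 and WT 65, Cxcr6 was at 0.07, Cxcr3 at 0.11 (0.01 scaled), Ccl12 at 0.19 (0.05 scaled) and Cxcl1 at 0.37 (0.3 scaled), and with scaling Cxcr4 was at -0.21 and Ccl25 at -0.09. Leaving out each library gave ranges, over both scalings, of -0.33 to 0.1 for Cxcl14, -0.04 to 0.36 for Cxcl12, -0.02 to 0.46 for Ccl11, -0.26 to 0.14 for Cxcr4, -0.26 to 0.15 for Ccl25, -0.16 to 0.32 for Ccl6, -0.74 to 0.37 for Ccl21a and -0.6 to 0.33 for Cxcl1.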
